A study of Homo sapiens with 4 samples.

Results

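Small leucine-rich proteoglycans and elastic fibre genes were described through 10 genes: the proteoglycan genes DCN, LUM, BGN, OGN and FMOD, the elastic fibre genes MFAP4, FBLN1, FBLN5 and ELN, and POSTN. The genes were taken by symbol from the platform annotation, and all 10 of them were measured, on 151 probesets, among 18640 genes in all. They had been selected on values of these same arrays, namely the differences between replicate numbers and between TBBD and DMSO within a number, in earlier results where matrix genes stood apart. Their differences between replicate numbers are therefore given as a description, with no test.

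RNA came from embryoid bodies, floating aggregates in which stem cells begin to specialise. The cells were BG01V, an established human line of embryonic origin whose karyotype is variant. Embryoid bodies of 1 group were given 10 µM TBBD for 48 h, and those of the control group were given DMSO. TBBD, a name for ellagic acid, is described in the series title as inhibiting methylation of arginine 17 on histone H3, and the treatment generally fell between day 2 and day 4. Each group had 2 Affymetrix Human Gene 1.0 ST arrays, numbered 1 and 2 in the labels, and all 4 arrays came from the same line and the same embryoid body protocol. The labels do not say whether the numbers mark separate cultures, or whether arrays of 1 number share a culture. The p-values below therefore measure only the spread between these arrays, which may be technical.

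Small leucine-rich proteoglycans are secreted proteins that coat collagen fibrils through a curved stack of leucine-rich repeats, and they set the spacing and thickness of the fibrils and bind growth factors such as TGF-beta. Elastic fibres consist of a core of cross-linked tropoelastin on a scaffold of fibrillin microfibrils, with fibulins and MFAP4 assisting assembly. Connective tissue cells of mesodermal origin are known as a main source of both.

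Values are RMA signals on the log2 scale, so 1 unit is a doubling. A gene's value on an array is the mean over its probesets, each of them a set of probes aimed at a stretch of exon. Probes differ in brightness, so values are set against each other across arrays, not across genes. Median log2 signals over all probesets lay between 6.39 and 6.42 on the 4 arrays. Across genes the SD of the difference between replicate numbers was 0.33 with TBBD and 0.31 with DMSO, against 0.21 for TBBD minus DMSO in number 1 and 0.19 in number 2. Olfactory receptor genes belong to the nose, and of the 371 measured here 95% had a mean signal under 5.66, which serves as a rough guide to background.

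Most of the 10 genes separated the arrays by replicate number, and DCN and MFAP4 did so most. Of the 10, DCN, LUM, BGN, FMOD, MFAP4 and POSTN were at least 1 log2 unit higher on replicate 2 with TBBD and also with DMSO. Over all genes 0.553% met that criterion, 103 of 18640. FBLN1 and FBLN5 were higher on replicate 2 by less, OGN lay near background and ELN was slightly lower. In bulk RNA more cells of a type and more RNA per cell cannot be told apart. The median difference over the 10 genes was 1.54, against -0.0024 over all genes. Within treatments the median of the 10 was 1.36 with TBBD and 1.70 with DMSO.

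**Figure D1:**
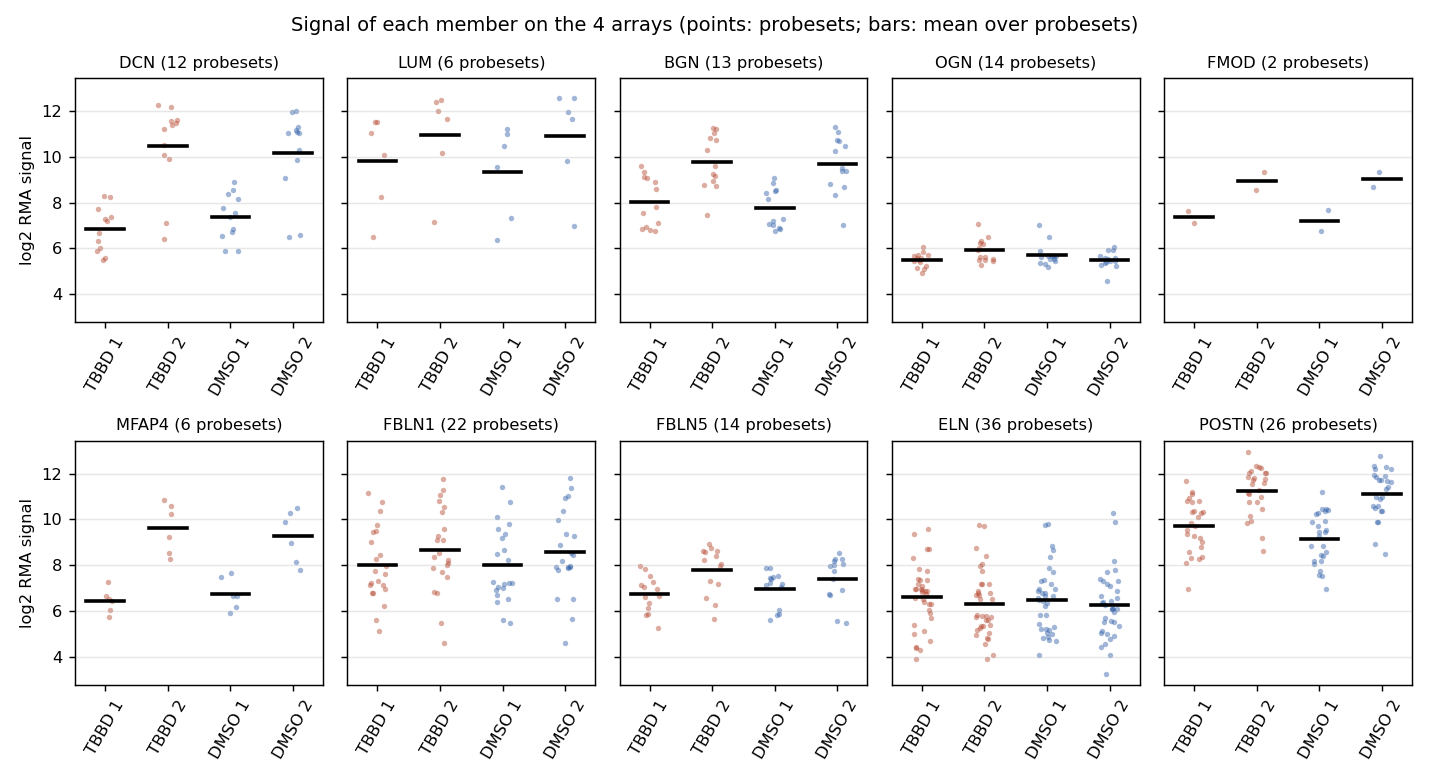
Log2 RMA signal (y axis) of the 10 genes on the arrays TBBD 1, TBBD 2, DMSO 1 and DMSO 2 (x axis). Points are probesets and bars their mean; DCN stood at 6.84, 10.47, 7.38 and 10.16 on these arrays, whereas ELN stayed between 6.25 and 6.64.

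Decorin, encoded by DCN, binds collagen fibrils and TGF-beta. DCN had a log2 signal of 10.47 with TBBD and 10.16 with DMSO on replicate 2, against 6.84 with TBBD and 7.38 with DMSO on replicate 1. Both replicate 2 arrays were high and both replicate 1 arrays low, with no overlap between the numbers. The difference was 3.63 with TBBD and 2.78 with DMSO, or 12.4-fold and 6.88-fold, and only 1 of the 18640 genes had a larger mean difference. All 12 probesets were higher on replicate 2 in both treatments and 10 of them by at least 1 unit in both. The other two, probesets 7965411 and 7965421, differed by 1.25 and 0.93 with TBBD, and by 0.61 and 0.69 with DMSO. They were also the dimmest on TBBD 2, at 7.12 and 6.40, where the highest DCN probeset reached 12.25. When probesets were summarised by their median, the DCN difference averaged over treatments was 3.98 instead of 3.21.

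Lumican, encoded by LUM, the neighbour of DCN on chromosome 12, is known for ordering collagen fibrils in the cornea. LUM had a log2 signal of 10.97 with TBBD and 10.92 with DMSO on replicate 2, against 9.81 with TBBD and 9.33 with DMSO on replicate 1. The numbers did not overlap, and the gap was 1.15 with TBBD and 1.59 with DMSO. DCN had the larger gap of these adjacent genes in both treatments. Within DCN the gap was larger with TBBD than with DMSO, and within LUM it was larger with DMSO. All 6 LUM probesets were higher on replicate 2 in both treatments, by 0.65 to 2.20 as a mean of the treatments. The other proteoglycan genes next to them, KERA and EPYC, differed between numbers by 0.09 and -0.02, at signals of 5.09 to 5.54, under the olfactory receptor guide of 5.66. KERA and EPYC are named here after their values were seen.

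Biglycan, encoded by BGN on the X chromosome, is the closest relative of decorin and also binds collagen. BGN had a log2 signal of 9.79 with TBBD and 9.67 with DMSO on replicate 2, against 8.03 with TBBD and 7.74 with DMSO on replicate 1. The numbers did not overlap, and the gap was 1.76 with TBBD and 1.93 with DMSO. Of its 13 probesets 12 were at least 1 unit higher on replicate 2 in both treatments. The exception, probeset 8170661, differed by 0.33 with TBBD and -0.26 with DMSO.

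Fibromodulin, encoded by FMOD, binds type I collagen and modulates its cross-linking. FMOD had a log2 signal of 8.95 with TBBD and 9.01 with DMSO on replicate 2, against 7.36 with TBBD and 7.20 with DMSO on replicate 1. Only 2 probesets carried the gene, and they gave nearly the same mean difference between numbers, 1.69 and 1.71.

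Osteoglycin, encoded by OGN, is a proteoglycan of bone and connective tissue. OGN had a log2 signal of 5.91 with TBBD and 5.50 with DMSO on replicate 2, against 5.50 with TBBD and 5.72 with DMSO on replicate 1. These values lay around the olfactory receptor guide of 5.66, so it is uncertain whether OGN was expressed. Its order over the arrays followed neither treatment nor number. The highest probeset values were 7.05 on TBBD 2 and 7.01 on DMSO 1, both at probeset 8162382. OMD, ASPN and ECM2, which lie next to OGN on chromosome 9, had signals between 5.31 and 5.60 on all arrays. These neighbours were chosen after their values were seen.

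MFAP4, a glycoprotein with a fibrinogen-like domain that binds tropoelastin, had a log2 signal of 9.62 with TBBD and 9.26 with DMSO on replicate 2, against 6.45 with TBBD and 6.76 with DMSO on replicate 1. It stood directly after DCN among all genes, at rank 3 by the mean difference between numbers. The gap was 3.18 with TBBD and 2.50 with DMSO, or 9.05-fold and 5.68-fold. All 6 probesets were at least 1 unit higher on replicate 2 in both treatments, from 1.43 to 3.53 as a mean of the treatments.

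Periostin, encoded by POSTN, is a secreted fasciclin-domain protein that assists collagen cross-linking and is not part of elastic fibres. POSTN had a log2 signal of 11.26 with TBBD and 11.13 with DMSO on replicate 2, against 9.69 with TBBD and 9.16 with DMSO on replicate 1. Its 26 probesets were all higher on replicate 2, 24 of them by at least 1 unit in both treatments, and the SD of their mean differences was 0.32, near the 0.34 of OGN and 0.36 of FBLN5 and against 1.11 for DCN.

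Fibulin-1, encoded by FBLN1, is a calcium-binding glycoprotein of elastic fibres and basement membranes with splice forms that differ at the end of the transcript. FBLN1 had a log2 signal of 8.68 with TBBD and 8.59 with DMSO on replicate 2, against 8.02 with TBBD and 8.01 with DMSO on replicate 1. The difference of 0.66 with TBBD and 0.58 with DMSO hid unequal probesets. As means of the treatments, the 4 probesets with the highest identifiers had a median difference of 1.31, from 0.88 to 1.65. The other 18 had a median of 0.59, from -0.76 to 0.98. This split was chosen after the values were seen, and the identifiers were not placed on exons or splice forms here. With the median over probesets the FBLN1 difference averaged over treatments was 0.93 instead of 0.62.

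Fibulin-5, encoded by FBLN5, tethers tropoelastin to cells and microfibrils. FBLN5 had a log2 signal of 7.80 with TBBD and 7.42 with DMSO on replicate 2, against 6.75 with TBBD and 6.97 with DMSO on replicate 1. The gap was 1.05 with TBBD and 0.45 with DMSO, and 11 of 14 probesets were higher on replicate 2 in both treatments.

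Elastin, encoded by ELN, is the core protein of elastic fibres. ELN had a log2 signal of 6.33 with TBBD and 6.25 with DMSO on replicate 2, against 6.64 with TBBD and 6.50 with DMSO on replicate 1. It was the only one of the 10 genes lower on replicate 2 in both treatments, by 0.31 with TBBD and 0.24 with DMSO. The 36 probesets disagreed, with 16 lower and 7 higher in both treatments, and their mean differences ran from -1.57 to 0.78. The 5 probesets with the highest identifiers had a median of -0.91 and the other 31 a median of -0.17, a split chosen after the values were seen. The ELN difference averaged over treatments was -0.27, and -0.73 with the median over probesets at each array, so its size depended on how probesets were summarised. In 10 of the 36 probesets the mean signal was not above the olfactory receptor probeset median of 5.40.

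**Figure D2:**
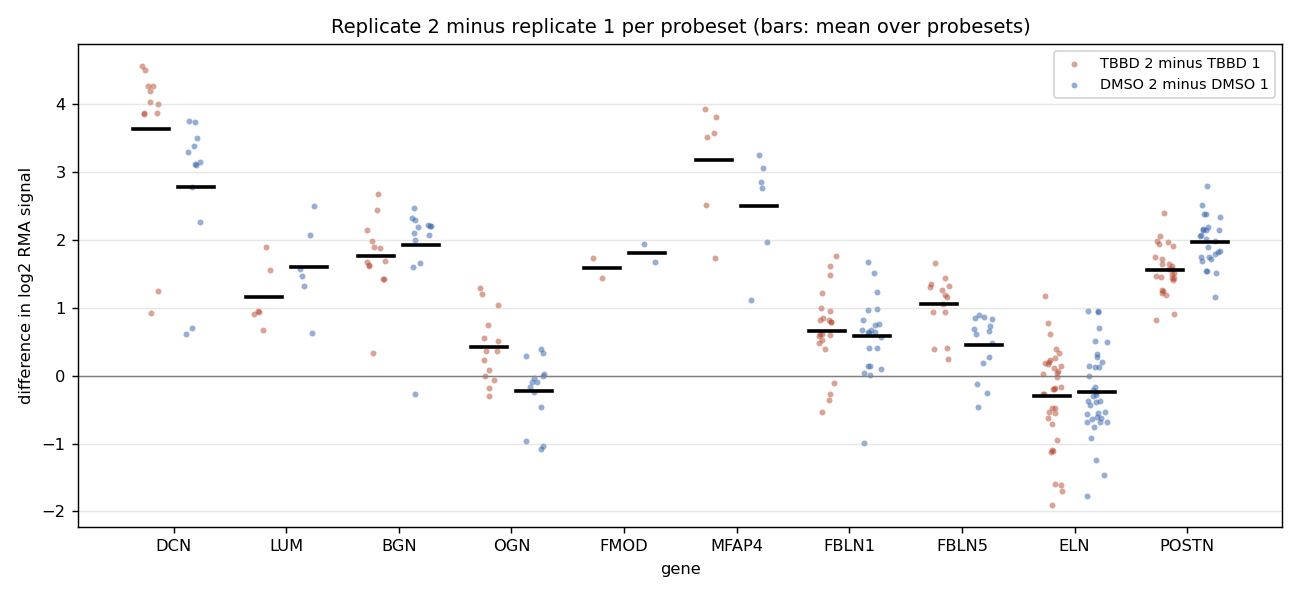
Difference in log2 RMA signal between replicate 2 and replicate 1 (y axis) for each probeset of the 10 genes (x axis), with TBBD at the left and DMSO at the right of each gene and bars for the mean. The DCN and MFAP4 bars lie between 2.50 and 3.63, and the ELN bars at -0.31 and -0.24.

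**Figure D3:**
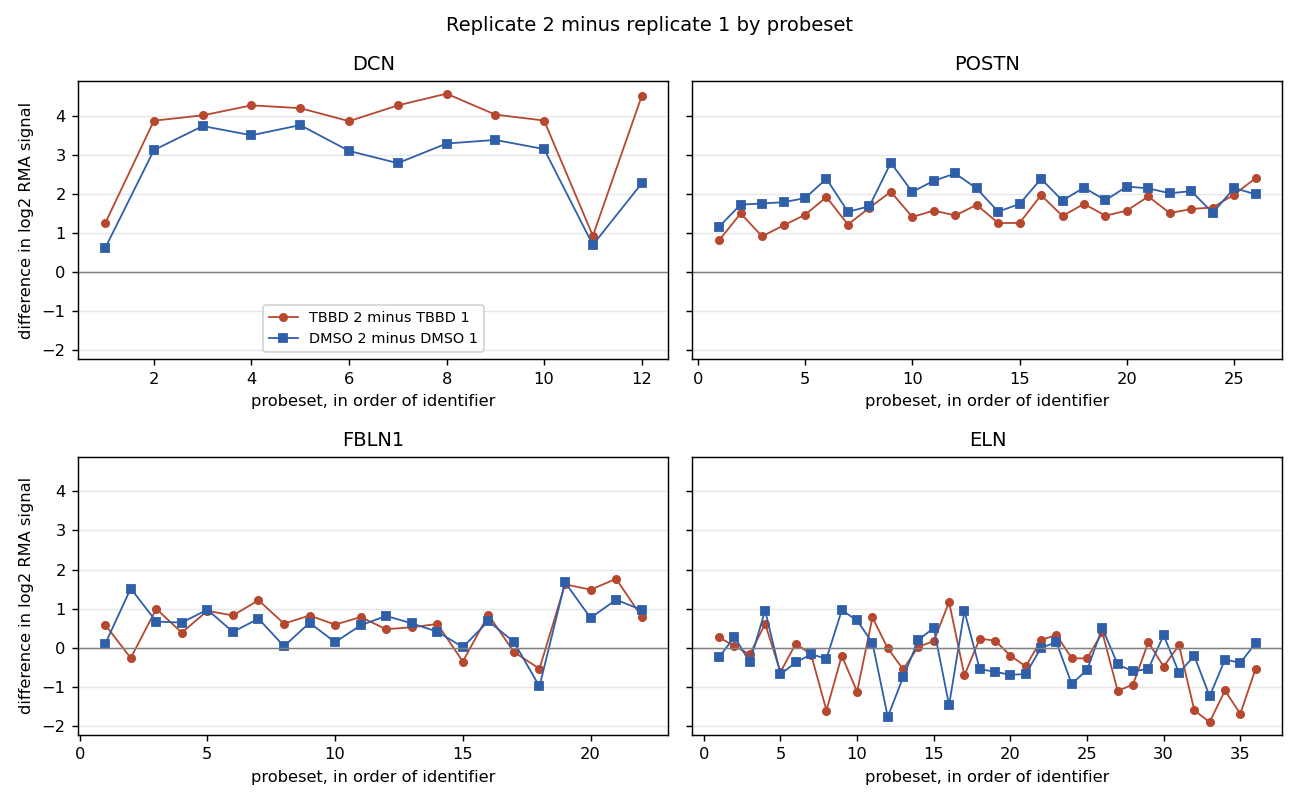
Difference in log2 RMA signal between replicate 2 and replicate 1 (y axis) of the probesets of DCN, POSTN, FBLN1 and ELN in order of identifier (x axis), a line per treatment. DCN dips at 2 probesets. Averaged over the treatments, which the lines do not show, the POSTN probesets run from 0.99 to 2.42. On the same average the last 4 FBLN1 probesets have a median of 1.31, and the last 5 ELN probesets of -0.91.

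Among the 6 genes at least 1 unit higher on replicate 2, start regions were at hand for POSTN, FMOD and BGN, and they are shown to compare what precedes genes that share this pattern. Each is the 250 bases before the gene start, 5′ to 3′ on the gene's strand, from RefSeq on GRCh38.p14. Capitals mark matches on either strand to the TATA box, spelled TATAAA, the pentamer CCAAT, the AP-1 site, spelled TGANTCA, the TEAD site, spelled GGAATG, or the GC box, spelled GGGCGG. A sixth motif, the E-box CANNTG, was searched but is left in lower case.
POSTN, chr13:37598769-37599018, minus strand: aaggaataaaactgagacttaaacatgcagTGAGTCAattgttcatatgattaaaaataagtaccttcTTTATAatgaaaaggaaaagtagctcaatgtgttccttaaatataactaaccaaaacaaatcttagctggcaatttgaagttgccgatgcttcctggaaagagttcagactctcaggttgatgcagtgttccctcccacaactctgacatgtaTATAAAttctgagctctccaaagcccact
FMOD, chr1:203351123-203351372, minus strand: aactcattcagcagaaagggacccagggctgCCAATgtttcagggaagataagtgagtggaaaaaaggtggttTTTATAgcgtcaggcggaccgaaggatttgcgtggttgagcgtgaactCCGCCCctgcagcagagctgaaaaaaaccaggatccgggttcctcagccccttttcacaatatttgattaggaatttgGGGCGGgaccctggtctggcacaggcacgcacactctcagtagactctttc
BGN, chrX:153494730-153494979, plus strand: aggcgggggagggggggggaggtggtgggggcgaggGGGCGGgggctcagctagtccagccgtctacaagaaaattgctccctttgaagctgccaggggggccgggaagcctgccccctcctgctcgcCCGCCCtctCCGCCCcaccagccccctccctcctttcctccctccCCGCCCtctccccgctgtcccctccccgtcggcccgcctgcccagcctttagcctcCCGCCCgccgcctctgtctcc

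The start regions had little in common. POSTN held TATAAA starting 29 bases before the start and a reverse match 182 bases before it, and FMOD held a reverse match 177 bases before it, whereas BGN held none. TATAAA occurs in 10.72% of the 35116 RefSeq windows of the same length. POSTN held the AP-1 site TGAGTCA, a motif found in 6.57% of windows, 220 bases before the start, and its end overlapped an E-box. FMOD held CCAAT, found in 32.01% of windows. BGN held 5 GC boxes and FMOD 2, a motif found in 42.64% of windows. E-boxes, found in 61.82%, were present in POSTN alone of the 3, and GGAATG, found in 11.89%, in none of the 3 windows. GC content was 36.4% for POSTN, 51.6% for FMOD and 74.0% for BGN, against a median of 58.0% over all windows. RefSeq windows matched 6 of the 10 genes, the others being OGN, FBLN1 and FBLN5.

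None of the 10 genes differed past the threshold between TBBD and DMSO. With limma, 0 of the 10 genes had an adjusted p under 0.05, as did 0% of all 18640 genes, and each of the 10 had an adjusted p of 1. At an unadjusted p under 0.05 limma gave 0 of the 10, against 0.746% of all genes. Since TBBD minus DMSO was among the results known when the genes were picked, these counts support nothing about the group. The median difference over the 10 genes was 0.09, against -0.0035 over all genes. The standard error of the fit also holds the gap between numbers and ran from 0.17 for ELN to 1.45 for DCN. For DCN the 95% confidence interval ran from -3.84 to 3.61.

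Within number 1, 6 of the 10 genes were higher with TBBD, against 45.2% of all genes. Within number 2, 9 of the 10 were, all but FMOD, against 53.2% of all genes. LUM, BGN, FBLN1, ELN and POSTN were higher with TBBD in both numbers, 5 of 10, against 21.5% of all genes. DCN, OGN, FMOD, MFAP4 and FBLN5 had opposite signs in the 2 numbers, 5 of 10, against 55.3% of all genes. None was lower in both numbers, against 23.0% of all genes. Both TBBD arrays lay above both DMSO arrays for 0 of the 10 genes, against 10.5% of all genes, and below them for 0, against 10.4%. The genes had been picked for their gap between numbers, and a gene whose gap exceeds its TBBD difference cannot separate in this way. These counts of 0 therefore support nothing about TBBD. TBBD minus DMSO within each number was also known when the genes were picked. The other counts of this paragraph therefore support nothing about TBBD either.

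POSTN differed by 0.54 in number 1 and 0.13 in number 2. All but 1 of its 26 probesets were higher with TBBD in number 1, and 20 were in number 2. Its mean difference was 0.33 ± 0.80 (SE, limma, n = 2 arrays per group), and with TBBD it averaged 10.48 ± 1.10, against 10.14 ± 1.40 with DMSO (SD, n = 2 each). These SDs are mostly the gap between numbers.

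LUM differed by 0.49 in number 1 and 0.048 in number 2, and by 0.27 ± 0.63 (SE) in the fit. Its 6 probesets were all higher with TBBD in number 1 and 3 were in number 2. BGN differed by 0.29 in number 1 and 0.12 in number 2, and by 0.20 ± 0.83 (SE) in the fit. Of its 13 probesets 11 were higher with TBBD in number 1 and 8 in number 2. In all 3 of these genes the larger difference was in number 1, where the genes were lower.

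DCN differed by -0.54 in number 1 and 0.31 in number 2, which left -0.11 ± 1.45 (SE) in the fit. Its probesets followed this turn, with 1 of 12 higher with TBBD in number 1 and 11 of 12 in number 2. MFAP4 differed by -0.31 in number 1 and 0.36 in number 2, and by 0.025 ± 1.28 (SE) in the fit. The turn was complete at its probesets, with 0 of 6 higher with TBBD in number 1 and 6 of 6 in number 2. Probesets of a gene read the same RNA on an array, so their agreement does not replicate the turn. FBLN5 differed by -0.22 and 0.38, with 4 of 14 and 13 of 14 probesets higher with TBBD. OGN, near background, differed by -0.22 and 0.42. Whether the difference between TBBD and DMSO depends on the number was not tested, since each number holds 1 array per treatment.

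FMOD differed by 0.15 in number 1 and -0.066 in number 2, FBLN1 by 0.0085 and 0.092, and ELN by 0.14 and 0.076. Each is smaller than the SD across all genes, 0.21 in number 1 and 0.19 in number 2. For ELN, 20 of 36 probesets were higher with TBBD in number 1 and 17 in number 2. For FBLN1, 9 and 12 of 22 were.

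**Figure D4:**
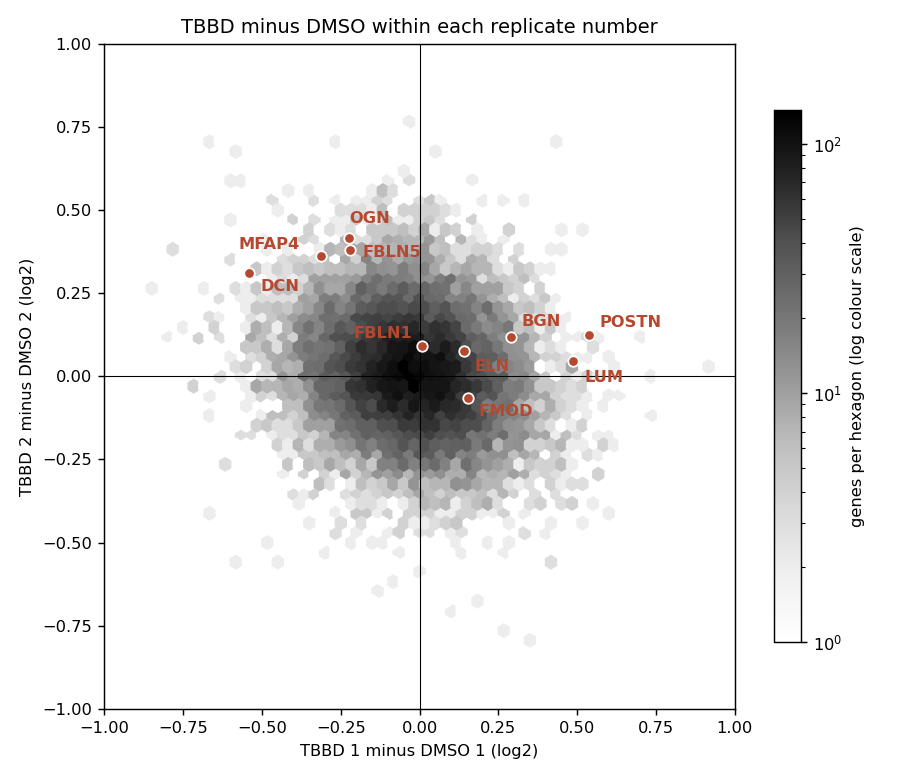
TBBD minus DMSO in replicate number 1 (x axis) and number 2 (y axis), both as log2 differences, for all genes (grey hexagons, colour on a log scale) and the 10 genes (red), with genes past 1 unit outside the axes. DCN, MFAP4, OGN and FBLN5 lie at the upper left, and POSTN, LUM and BGN at the right near the horizontal axis.

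Other small leucine-rich proteoglycan genes, 13 in the list and all of them measured, had a median difference between numbers of 0.07. At least 1 unit higher on replicate 2 in both treatments were 0 of the 13, a count near the 0.553% of all genes. Signals of ASPN, KERA, OMD and EPYC, among others of the list, stayed under 5.66 on all arrays. PRELP, which lies next to FMOD on chromosome 1 and encodes an anchor between collagen and basement membranes, had 6.80 with TBBD and 6.91 with DMSO on replicate 2, against 6.78 with TBBD and 6.68 with DMSO on replicate 1. The 5 genes in this paragraph were chosen after their values were seen.

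Other elastic fibre and microfibril genes were mixed. Of 25 listed, all measured, 1 was at least 1 unit higher and 1 at least 1 unit lower on replicate 2 in both treatments, against 0.553% and 0.150% of all genes, with a median difference of 0.19. TGFBI, a fasciclin-domain relative of periostin, had 9.57 with TBBD and 9.80 with DMSO on replicate 2, against 8.05 with TBBD and 7.74 with DMSO on replicate 1. FBN2, the fibrillin best known from developing tissues, had 7.94 with TBBD and 8.05 with DMSO on replicate 2, against 9.49 with TBBD and 9.38 with DMSO on replicate 1. Its relative FBN1, chosen after its values were seen, lay the other way, with 8.01 and 7.62 on replicate 2, against 6.98 and 6.95 on replicate 1, TBBD before DMSO. LOX, the enzyme that cross-links elastin and collagen, differed between numbers by 0.043 with TBBD and 0.46 with DMSO, and was higher with TBBD by 0.88 in number 1 and 0.46 in number 2 (limma adjusted p = 1). In limma 0 of these 25 genes, and 0 of the 13 proteoglycan genes, had an adjusted p under 0.05 for TBBD. Over all genes that share was 0%. At an unadjusted p under 0.05 there were 1, LOX, and 0, against 0.746% of all genes.

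Of collagen and partner genes, among them fibrillar collagens that the proteoglycans bind, most were also higher on replicate 2. The 14 genes had a median of 0.97, and 13 were higher in both treatments at any size, against 30.4% of all genes. The exception, COL11A1, named after its values were seen, differed by -0.28 with TBBD and 0.14 with DMSO. Of the 14, 6 were at least 1 unit higher on replicate 2 in both treatments, against 0.553% of all genes. COL3A1 differed by 2.31 with TBBD and 2.02 with DMSO, PCOLCE, which enhances procollagen processing, by 2.09 and 1.42, COL6A3 by 1.61 and 1.84, COL1A1 by 1.59 and 1.74, COL1A2 by 1.65 and 1.58, and COL6A2 by 1.22 and 1.22. The genes that build the glycosaminoglycan chains of proteoglycans had a median of 0.11, with 0 of 14 at that size, a count near the share of all genes. Of 10 genes for TGF-beta ligands, receptors and their SMADs, 1 was at that size, TGFBR3, the receptor betaglycan, at 2.00 with TBBD and 1.53 with DMSO.

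By shape over the 4 arrays, the genes most like the mean of the 10 were GPC3, SLIT2, LMO3, DDR2 and NR2F1. Likeness was the root mean square difference between values centred on each gene's own mean, taken over genes with at least 3 probesets, and ran from 0.035 for GPC3 to 0.073 for NR2F1 on the log2 scale. GPC3, which encodes a membrane-bound heparan sulphate proteoglycan, had 9.57 with TBBD and 9.44 with DMSO on replicate 2, against 8.06 with TBBD and 8.06 with DMSO on replicate 1. DDR2, a receptor kinase for fibrillar collagen, differed between numbers by 1.62 with TBBD and 1.25 with DMSO. The 10 genes themselves lay further from their own mean, from 0.17 for LUM to 0.93 for DCN.

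Markers of several cell types also differed between replicate numbers, whereas neural progenitor markers as a list did not. Over all genes 30.4% were higher and 31.6% lower on replicate 2 in both treatments, at any size, and 0.553% were higher by at least 1 unit. Of 12 measured neural progenitor markers 4 were higher and 4 lower in both treatments, 0 were higher by at least 1 unit, and the median was 0.04. Several lay near background. NEUROG1 and NEUROG2 stayed under the olfactory receptor guide of 5.66 on all arrays, whereas NES lay between 7.05 and 7.53. These 3 are named after their values were seen. A marker that was not expressed cannot show a difference between numbers. Of 15 mesenchyme and fibroblast markers 11 were higher on replicate 2 in both treatments, 1 of them, TCF21, by at least 1 unit, and the median was 0.35. A summed level is here the log2 of the signals added on the linear scale, so the brightest genes weigh most. Their summed level was 12.28 with TBBD and 12.10 with DMSO on replicate 2, against 11.86 with TBBD and 12.03 with DMSO on replicate 1. All 10 endothelial markers were higher on replicate 2 in both treatments, with a median of 0.76 and PECAM1 at 2.40 with TBBD and 1.70 with DMSO. Their summed level was 11.11 and 10.73 on replicate 2, against 9.93 and 10.00 on replicate 1, TBBD before DMSO. Of 14 measured visceral endoderm and hepatic markers 10 were higher in both treatments, 8 by at least 1 unit, AFP by 2.37 with TBBD and 2.48 with DMSO. The list also held 1 marker lower in both, GATA4, at -0.30 with TBBD and -0.86 with DMSO, named after its values were seen. Their summed level was 11.45 and 11.21 on replicate 2, against 10.44 and 10.59 on replicate 1, TBBD before DMSO. On replicate 1 AFP had 5.85 with TBBD and 5.50 with DMSO, and PECAM1 5.14 and 5.30. These values lay near or under the olfactory receptor guide of 5.66, so the size of both gaps is uncertain.

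Smooth muscle markers were split, and most pluripotency markers were lower on replicate 2. Of 10 smooth muscle markers 6 were higher and 4 lower on replicate 2 in both treatments, against 30.4% and 31.6% of all genes, with a median of 0.10, and ACTA2 was higher by 1.41 with TBBD and 1.02 with DMSO. Their summed level was 10.97 and 10.85 on replicate 2, against 10.76 and 10.95 on replicate 1, TBBD before DMSO. Of 14 measured pluripotency markers 8 were lower and 2 higher on replicate 2 in both treatments, against 31.6% and 30.4% of all genes, with a median of -0.33. POU5F1 differed by -1.14 with TBBD and -0.55 with DMSO, NANOG by 0.04 and -0.23, and SOX2 by 1.19 and 1.40. Their summed level was 11.14 and 11.43 on replicate 2, against 11.68 and 11.84 on replicate 1, TBBD before DMSO. With TBBD all 14 measured pluripotency markers averaged lower, against 51.2% of all genes, with a median of -0.20. Of these 8 were lower in both numbers, against 23.0% of all genes. The list was chosen with earlier results of these data known, so these counts support nothing about TBBD. In limma 0 of the 14 had an adjusted p under 0.05, against 0% of all genes. At an unadjusted p under 0.05 there was 1, GDF3, against 0.746% of all genes. No marker is listed at 0. The part of these cell types in the gap of the proteoglycan and elastic fibre genes was not tested.

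**Figure D5:**
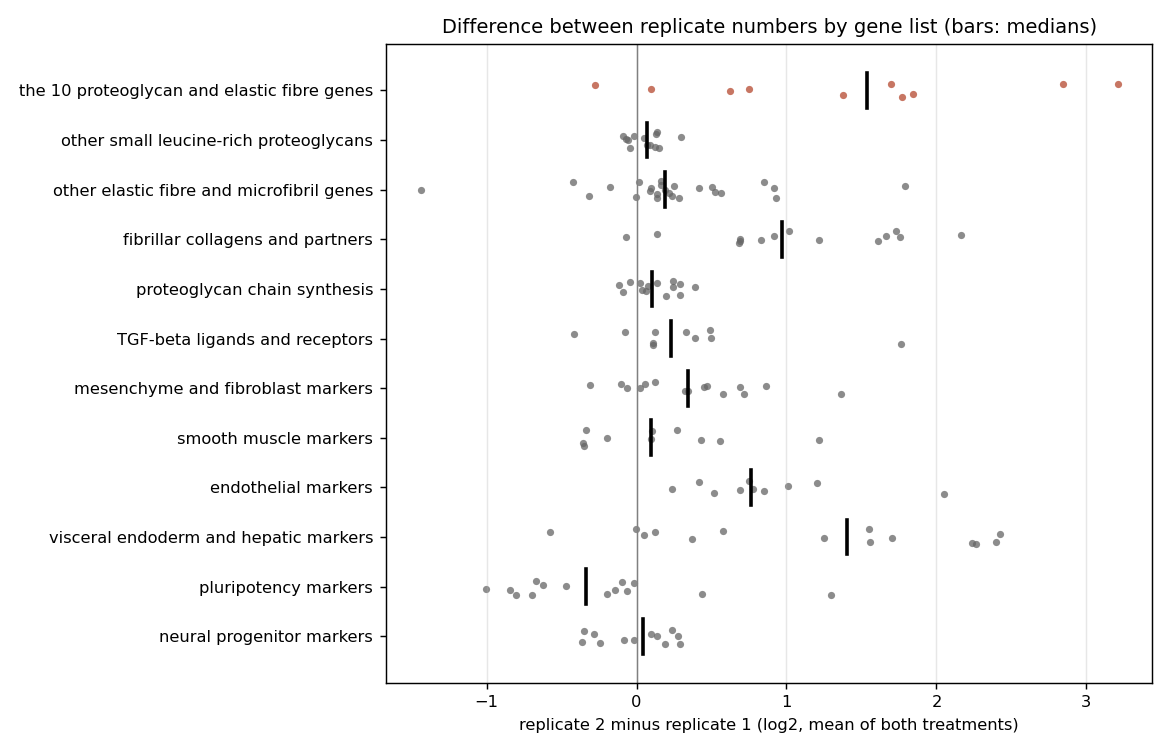
Difference between replicate 2 and replicate 1, as the log2 mean over both treatments (x axis), for each gene of the lists (rows), with the 10 genes on top in red and bars for the medians. The 10 genes have a median of 1.54, the collagens and partners 0.97, visceral endoderm and hepatic markers 1.40, and pluripotency markers -0.33.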

How the data were processed

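Affymetrix Human Gene 1.0 ST arrays measured RNA of 4 samples. Per the submitters' processing notes the authors used RMA; for its version, settings and build, nothing is stated. Values are deposited as log2 signals per probeset, the scale having been read from the values. Of 247312 probesets, 277 with a placeholder in any cell were left out. Probesets with 1 gene symbol, updated through RefSeq, were combined by their mean into 18640 genes. Titles gave groups and numbers. The two-sided test of TBBD against DMSO used limma 3.58.1 (R 4.3.3) with no term but the group. Benjamini-Hochberg adjustment covered every gene, with a threshold of 0.05. The fit was tested on simulated data whose arrays varied independently. Those data held no gap between replicate numbers, so they do not show how the fit does on these arrays. The number of arrays limits precision. Differences between replicate numbers were described without a test.

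The genes, lists and motifs were chosen with earlier results of these data known. Beyond the 10 genes, the naming rule took from each list up to 6 genes at least 1 unit apart between numbers in both treatments, up to 3 differing by at least 0.4 between TBBD and DMSO with 1 sign in both numbers, the 5 most similar profiles, and POU5F1, NANOG and SOX2. Not all genes that met it are described. Alternatives were another summary over probesets, quantile normalization, median centring, brighter probesets or genes, symbols as given, an intensity trend, the replicate number as a block, single probesets and each array left out. Python 3.11.15, numpy 2.4.6, pandas 2.3.3 and matplotlib 3.10.9 were used.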

Additional observations from a re-analysis of the deposited data

How the results depend on the processing

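With limma 0 genes passed the adjusted threshold for TBBD minus DMSO under every alternative tried, and the count at an unadjusted p under 0.05 ran from 47 among the brighter 12427 genes to 496 with the replicate block, and was 6633 of 247035 on single probesets. The replicate block gave 0 adjusted calls and, of the 10 genes, 1 at an unadjusted p under 0.05, POSTN. The standard error of DCN was 0.20 with it, against 1.45 without. Deviations of arrays with the same number correlated at 0.566 across genes, but the labels do not say that a number marks a shared culture. The median difference between replicate numbers over the 10 genes ran from 1.32 to 1.70 with 1 array left out and from 1.52 to 1.60 in the other settings. For OGN it ran from -0.11 to 0.31 with 1 array left out.

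With 1 array left out the numbers are unequal between treatments by construction, and the TBBD minus DMSO values follow the number left in excess. The median over the 10 genes then ran from -0.59 to 1.01, DCN from -1.93 to 1.70, LUM from -0.53 to 1.07, BGN from -0.76 to 1.17, OGN from -0.11 to 0.31, FMOD from -0.86 to 0.95, MFAP4 from -1.56 to 1.61, FBLN1 from -0.28 to 0.38, FBLN5 from -0.44 to 0.60, ELN from -0.046 to 0.26 and POSTN from -0.66 to 1.32. With the median over probesets FBLN5 differed by -0.041, and the cause was not tested. A lone array of a group is assumed to vary like the others. Without a detection call, which probesets lay above background is not known here.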
